A study of Danio rerio with 16 samples.

Results

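Tiles of 500 bp whose CpG methylation stayed near the middle of the scale were collected from whole genome bisulfite sequencing (WGBS) of the zebrafish caudal fin. A tile was eligible where it held 5 or more CpGs and 20 or more calls (reads summed over its CpGs) in every one of the 16 libraries. It was taken as intermediately methylated in all libraries where its level, the methylated calls as a percent of all calls, was 35 to 65% in each of the 16. Of 1155333 eligible tiles, 7051 (0.610%) did so, and they held 76761 CpGs. The measured levels chose these tiles, so their levels and the differences between libraries are given as a description.

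All fish carried the transgene Tg(sp7:EGFP), in which the sp7 regulatory regions drive EGFP in differentiating and mature osteoblasts, the bone-forming cells that line the fin rays. There were 8 groups of 2 libraries. Whole fin was taken uninjured, at 0 days post-amputation (dpa), and the regenerate, a mixture of blastema and wound epidermis, was taken at 1, 2 and 4 dpa. Cells of the uninjured fin and of the 4 dpa regenerate were also sorted into EGFP-positive (sp7+) and EGFP-negative (sp7-) fractions, so sp7- cells are a mixture of all other cell types. Fish were adult, and the sorted libraries came from pools of fish. By the study's methods both fractions were sorted from fins gathered together for each replicate, but the labels do not say that equal numbers mark the same pool. The whole fin libraries held 117991918 to 153260623 calls and the sorted ones 198736279 to 471925247, and the fin libraries therefore set the depth at which a tile could be judged.

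DNA methylation in vertebrates is carried mostly by cytosines of CpG pairs. Most CpGs are methylated in nearly every cell, and CpG-rich promoters are mostly free of it. A level between these states can arise where cells of a mixture differ, where the 2 alleles differ, where neighbouring CpGs of 1 molecule differ, or where methylation changes over time. Counts for single CpGs show where the levels of neighbouring CpGs differ. They do not show which calls came from the same read, so at CpGs that themselves have a level between, these states cannot be told apart here.

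In the 7051 tiles, the median level of uninjured whole fin was 50.4% ± 0.498 (SD, n = 2 libraries here and below). That of the regenerate was 54.0% ± 0.0382 after 1 day, 53.3% ± 0.737 after 2 and 51.1% ± 0.110 after 4. It was 50.0% ± 0.460 in sp7- cells at 0 dpa and 50.6% ± 0.601 at 4 dpa, and 50.1% ± 0.101 and 49.5% ± 0.324 in sp7+ cells. All eligible tiles had median levels of 82.7 to 86.3% in the same libraries. The tiles thus sat far below the eligible tiles as a whole in each library by their choice, and whole fin at 1 and 2 dpa was the highest among the groups. Tiles that were not eligible are not covered. Of 2631724 tiles with 1 CpG or more, 729917 held fewer than 5, and 746474 others had fewer than 20 calls in at least 1 library.

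**Figure D1:**
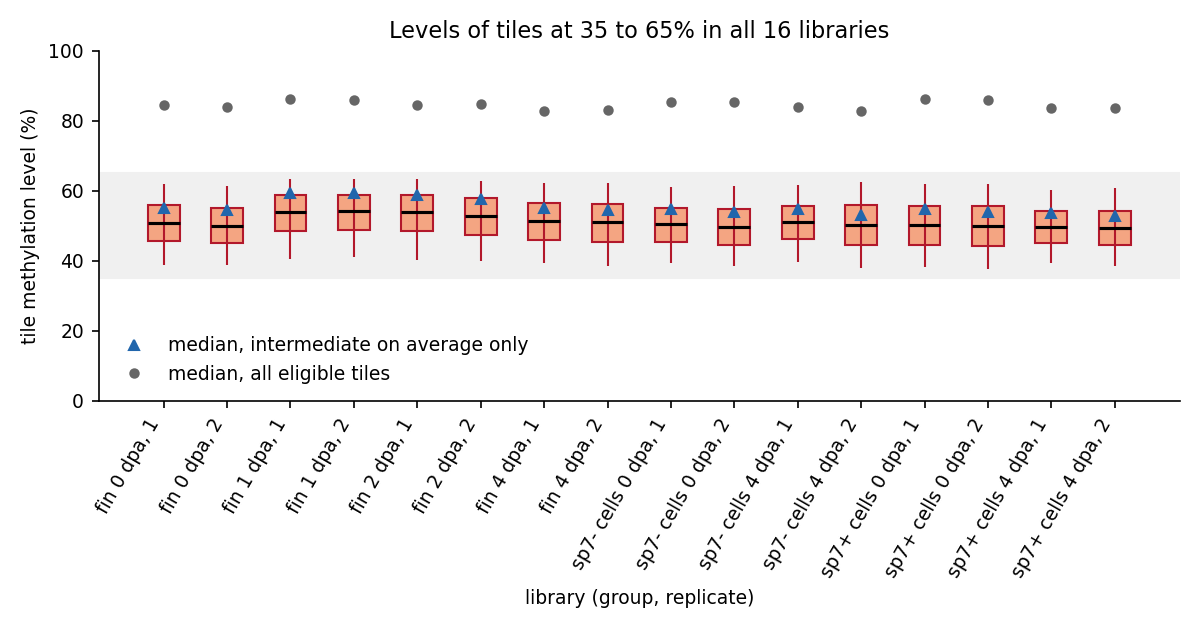
Methylation level in percent (y axis) of the 7051 tiles in each library (x axis, group and replicate). Boxes span the quartiles, the black line is the median, whiskers run from the 5% to the 95% quantile, triangles and circles are medians of the tiles intermediate on average only and of all eligible tiles, and the grey area is the band of 35 to 65% that chose the tiles; the medians of the chosen tiles ran from 49.2 to 54.1%.

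Within 1 tile, the highest library exceeded the lowest by a median of 21.5 points (quartiles 18.4 and 24.4), where the band allows at most 30. The SD over the 16 libraries had a median of 6.26 points, and binomial counting of independent calls would give 4.85 points. This counting SD takes each call of a tile as a separate draw at the tile's level. Calls of 1 read are not separate, and CpGs of a tile differ in level and in calls. The size of this effect was not tested. Of these tiles, 21.05% had an SD no larger than that of counting, against 15.65% of all eligible tiles, whose medians were 4.47 and 3.49 points. The band limited the SD of the chosen tiles, and counting alone would also put some SDs above its own value. The share is thus not that of tiles explained by counting.

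A wider set gave the scale of the choice. Of the eligible tiles, 100318 (8.68%) had a mean level of 35 to 65% over the 16 libraries, and 93267 of them left the band in at least 1 library. These are called intermediate on average only. Among the 100318, 10874 tiles left the band in 1 library, 12275 in 2 and 12856 in 3, so the chosen tiles were the end of a continuous distribution. Depth moved with the choice. The lowest library had a median of 60 calls in the chosen tiles and 43 in those intermediate on average only. Of tiles with a mean level in the band, 3.26 per 100 were chosen where the lowest library had 20 to 29 calls, and 13.2 per 100 where it had 120 or more. The part of counting error in leaving the band was not tested beyond these values.

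Tiles at the edge of the band were close in level on both sides of it. Just inside, chr1:9496500-9496999 ran from the limit of 35% itself, in replicate 1 of whole fin at 0 dpa, up to 56.9%, and chr1:29811000-29811499 reached the limit of 65% in replicate 1 of whole fin at 1 dpa. Just outside, chr18:13782000-13782499 reached 65.01% in sp7+ cells at 0 dpa, replicate 1, and chr22:12448500-12448999 was at 34.99% in sp7+ cells at 4 dpa, replicate 2.

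The flattest tiles showed how a level could stay in the band. The smallest range over the 16 libraries was found at chr4:54519500-54519999, which held 19 CpGs. Its levels in whole fin at 0, 1, 2 and 4 dpa were 62.4 and 62.5%, 64.1 and 59.4%, 62.3 and 60.9%, and 62.1 and 59.3%. They were 60.7 and 60.9% in uninjured sp7- cells and 62.7 and 60.6% in those of the regenerate, and for sp7+ cells 63.98 and 59.9% before and 64.4 and 61.8% after amputation. No group stood apart. Its single CpGs, in contrast, were mostly near the ends of the scale. Over all libraries, the CpGs 303 and 324 bp into the tile were methylated in 0.177 and 0.176% of 566 and 569 calls, the next CpG at 334 bp in 96.1% of 567, and the CpG at 406 bp in 7.08% between neighbours at 88.8 and 94.4%. Calls were uneven along the tile. The CpGs from 167 to 291 bp were at 94.6 to 100% with only 1 to 37 calls each, so they weighed little in its level.

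The next flattest tile, chr3:43626500-43626999, ran from 55.0 to 61.3% over the libraries. Its 24 CpGs changed along the tile, in that the first 7 were at 63.8 to 94.1%, the next was at 22.7%, and those further on ranged from 17.3 to 86.1%. The third, chr13:1787000-1787499, ran from 48.3 to 55.6%, with 8 of its 10 CpGs of 50 or more calls at 75% or more and the other 2 at 4.64 and 1.78%. In the flattest tile and in chr13:1787000-1787499, a flat tile level was the mean, weighted by calls, of mostly high and low CpGs. At chr3:43626500-43626999, CpGs between these weighed as well. Of its 24 CpGs, 10 were high, 4 were low and 10 were medium, by the limits given in the next paragraph.

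Low and high CpGs were present together in most of the chosen tiles, but most single CpGs lay between these. Single CpGs were compared where the 16 libraries together gave 50 or more calls, in the 6813 chosen tiles with 5 or more such CpGs. The SD of CpG levels within a tile had a median of 24.5 points (quartiles 19.9 and 29.5), and 24.2 points once the counting variance was taken off. In tiles intermediate on average only it was 20.8 points, and in all eligible tiles 10.2. Of the 70940 CpGs, 16.3% were low (under 25%), 60.7% medium and 23.0% high (75% or more), and 37.5% were themselves between 35 and 65%. Tiles without any medium CpG were few, at 126 (1.85%), against 1.28% of tiles intermediate on average only. Both a low and a high CpG were present in 4709 tiles (69.1%), against 41.9% of tiles intermediate on average only and 11.3% of all eligible tiles. The chosen tiles held a median of 10 CpGs and the tiles intermediate on average only 9, and they differed in depth as given above. The part of either in the difference was not tested.

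**Figure D2:**
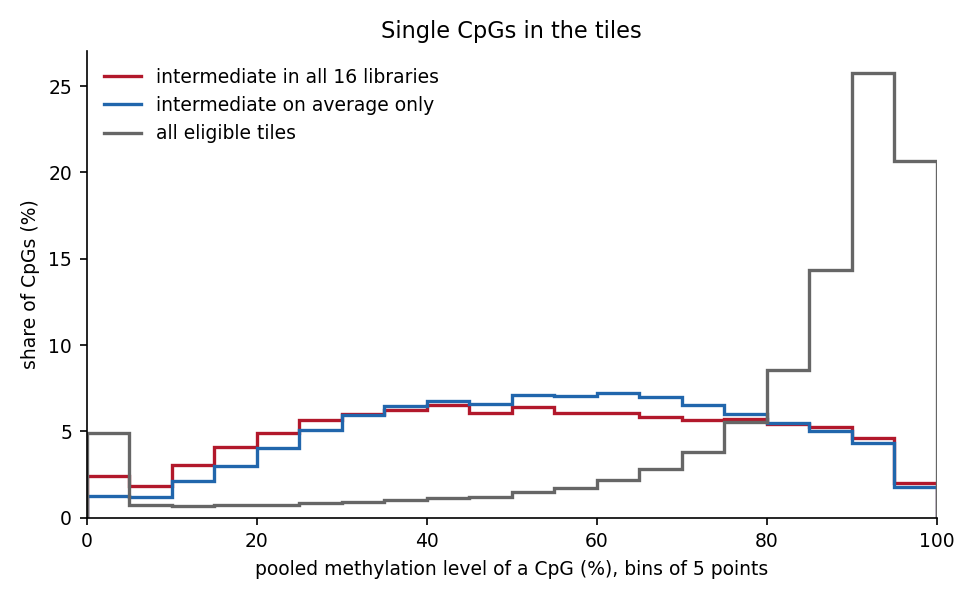
Share of CpGs in percent (y axis) by their level over all 16 libraries in bins of 5 points (x axis), for CpGs with 50 or more calls in the chosen tiles (red), in tiles intermediate on average only (blue) and in all eligible tiles (grey). In the chosen tiles 60.7% of CpGs were at 25 to 75%, and the rest were low or high.

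CpGs further apart differed more in level. Within the chosen tiles, 2 CpGs at 2 to 5 bp differed by a median of 8.28 points, at 26 to 50 bp by 14.7, above 100 and up to 200 bp by 24.7 and above 300 bp by 37.6 points. In tiles intermediate on average only these medians were 6.95, 12.6, 20.3 and 31.2 points. Medians over pairs do not tell a gradual change from a step. The first and last 250 bp of a tile differed by a median of 25.6 points. The difference was above 50 points in 834 of 6659 tiles (12.5%) and under 10 points in 1369 (20.6%). In tiles intermediate on average only, 8.48% differed by more than 50 points.

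The tiles of widest CpG spread held a sharp step. At chr15:28549500-28549999, the first 5 CpGs, 141 to 216 bp into the tile, were at 90.7 to 97.9%, and the last 4, from 434 bp on, at 0.836 to 3.30%. The tile before it had a level of 88.1% and the tile after it 0.638%, so the tile lay across the border of an unmethylated region. Levels of the whole tile in whole fin at 0, 1, 2 and 4 dpa were 42.1 and 47.6%, 38.1 and 35.9%, 40.7 and 47.9%, and 43.5 and 50.5%. In sp7- cells they were 55.0 and 50.4% at 0 dpa and 44.6 and 39.2% at 4 dpa, and in sp7+ cells 37.7 and 42.2% and 46.8 and 41.9%. Among fin libraries those at 1 dpa were the lowest, and both sp7- libraries at 0 dpa were above both sp7+ libraries. The sides of the step were at 90 to 98.6% and 0 to 3.17% over the fin libraries together. Over the sorted ones they were at 91.0 to 97.8% and 0.847 to 3.36%. The level of such a tile also depends on how a library's calls were split between the sides. The part of this in the differences was not tested. At chr6:85000-85499 the order was the opposite, since 13 CpGs up to 216 bp into the tile were at 0 to 3.70%, 10 from 300 bp on were at 91.8 to 99.1%, and the tiles on either side had levels of 0.756 and 97.4%. At chr2:56397500-56397999, 4 CpGs at 89.6 to 98.0% were followed by 4 at 0 to 9%. Whether these borders lie at promoters could not be read from positions alone.

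A smaller group of tiles was even. In 403 of the 6813 tiles (5.92%) each CpG was medium, and in 37 (0.543%) each was between 35 and 65%. The shares were 10.2% and 0.885% in tiles intermediate on average only. The most even, chr6:43642500-43642999, had 8 CpGs at 38.6 to 56.2% with an SD of 5.71 points. Whole fin libraries there were at 44.1 and 37.6%, 40.8 and 36.2%, 45.1 and 41.7%, and 49.5 and 56.9% at 0, 1, 2 and 4 dpa. The sp7- libraries were at 47.1 and 40% at 0 dpa and 50.4 and 53.5% at 4 dpa, and the sp7+ libraries at 38.0 and 36.8% and 46.6 and 40%. The highest values were those of whole fin and sp7- cells at 4 dpa, and the other libraries were at 36.2 to 47.1%. At chr24:14683000-14683499, 15 CpGs lay at 42.0 to 65.5%, and at chr8:48094500-48094999, 16 CpGs lay at 34.8 to 57.7%. Both of these had more coverage than usual, at 3.0 and 2.42 times the median calls per CpG of eligible tiles, and the part of coverage in their levels was not tested.

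**Figure D3:**
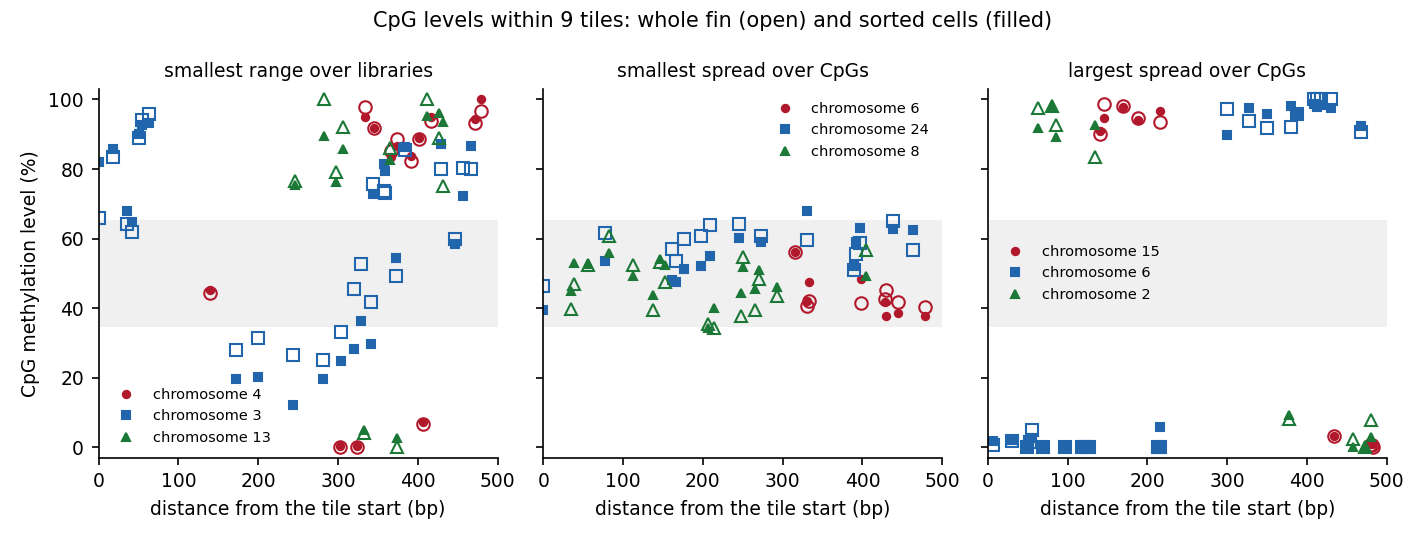
Level of each CpG in percent (y axis) by its distance in bp from the start of its tile (x axis), for the 3 tiles with the smallest range over libraries, the 3 with the smallest and the 3 with the largest spread over CpGs. Open symbols are calls of the 8 whole fin libraries together, filled symbols those of the 8 sorted libraries, colours are tiles, the grey area is 35 to 65%, and CpGs have 50 or more calls over all 16 libraries. Steps between high and low CpGs lay at the same places in fin and sorted cells.

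The even and the stepped tiles differed in their surroundings. Among the stepped tiles, 817 with a difference above 50 points between the first and last 250 bp and 5 or more CpGs of 50 calls, a low tile on one side and a high tile on the other were present in 205 of 789 (25.98%) with both neighbours measured. This was so for 12 of 366 (3.28%) of the even tiles, which had 2 medium neighbours in 93 (25.4%). The difference was not tested, since the levels of adjacent tiles are not independent of the step. Median coverage was alike, at 1.17 and 1.20 times that of eligible tiles.

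The levels of single CpGs within the tiles were kept between samples. For CpGs with 30 or more calls in both pools of libraries, the deviation from the tile's mean was compared across CpGs, which are not independent of each other. Pearson's r was 0.969 between the replicates 1 and the replicates 2 of all groups (65455 CpGs), 0.950 between whole fin and sorted cells (60029), 0.948 between sp7+ and sp7- cells (60902) and 0.956 between sorted cells at 0 and 4 dpa (61227). The CpGs' levels differed by more than 25 points between sp7+ and sp7- cells in 1.83% of cases, against 0.220% between replicates. In tiles intermediate on average only, which were allowed to differ, these shares were 5.99% and 0.361%. Their r was 0.953 between replicates, 0.927 between whole fin and sorted cells, 0.919 between sp7+ and sp7- cells and 0.933 between 0 and 4 dpa. The kept levels were thus not particular to the chosen tiles. The replicate pools held more libraries and calls than the sp7+ and sp7- pools, and the part of this in the shares was not tested.

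The contrast between CpGs of a tile was not the same in all groups. The rule fixed the mean of a tile in a library but not the spread of its CpGs. After counting variance was taken off, the SD within the chosen tiles was 28.8 points ± 0.252 in sp7+ cells at 0 dpa and 26.5 ± 0.0804 at 4 dpa. In sp7- cells it was 26.9 ± 0.0400 and 24.5 ± 0.885. In whole fin it was 25.2 ± 0.326 before amputation and 24.6 ± 0.0558, 23.7 ± 0.297 and 23.5 ± 0.355 after 1, 2 and 4 days. In each cell fraction and in whole fin, both libraries at 4 dpa were below both at 0 dpa. At each of these times both sp7+ libraries were above both sp7- libraries, and 1 and 2 dpa in whole fin lay between 0 and 4 dpa, with the libraries of 2 and 4 dpa overlapping. Tiles intermediate on average only gave the same directions at lower values, from 25.2 ± 0.184 in sp7+ cells at 0 dpa to 19.3 ± 0.231 in whole fin at 4 dpa. All eligible tiles gave 15.1 ± 0.241 in sp7+ cells at 0 dpa and 14.4 ± 0.295 at 4 dpa, and 14.5 ± 0.344 and 13.9 ± 0.319 in sp7- cells, the same directions with smaller differences. Their whole fin order was another, with 13.7 ± 0.257 at 0 dpa and, after 1, 2 and 4 days, 12.6 ± 0.00776, 12.5 ± 0.0541 and 12.97 ± 0.0164, so that 1 and 2 dpa lay below 4 dpa. These spreads are given with no test, since an exact permutation test of 2 against 2 libraries (two-sided) cannot give a p below 0.333.

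Depth differed between these libraries. Restricted to the CpGs with 5 or more calls in every library, which gave 3498 tiles, the SD was 27.4 points ± 0.146 and 25.03 ± 0.0805 in sp7+ cells at 0 and 4 dpa, 25.3 ± 0.115 and 22.6 ± 0.804 in sp7- cells, and 23.8 ± 0.0636 and 22.1 ± 0.295 in whole fin. The directions were as before. CpGs were also sorted by their level over all libraries. The 11715 low CpGs had a level of 11.2% ± 0.0261 in sp7+ cells at 0 dpa, 12.7% ± 0.00563 at 4 dpa, 13.2% ± 0.300 and 17.0% ± 0.782 in sp7- cells, and 16.1% ± 0.215 and 18.5% ± 0.628 in whole fin. The 16533 high CpGs had 87.4% ± 0.198 and 84.7% ± 0.227 in sp7+ cells, 86.0% ± 0.169 and 83.3% ± 1.37 in sp7- cells, and 84.7% ± 0.325 and 83.0% ± 0.456 in whole fin. In these 3 kinds of sample low CpGs were thus higher and high CpGs lower at 4 dpa than at 0 dpa. This was not so for both ends at each time. After 1 and 2 days the low CpGs of whole fin were at 19.5% ± 0.132 and 19.97% ± 1.07, above 0 dpa, and the high CpGs at 86.2% ± 0.219 and 84.7% ± 0.378, which is above and level with 0 dpa. Sorted libraries were deeper and weighed more in this sorting of CpGs, so the levels are best read within a kind of sample.

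**Figure D4:**
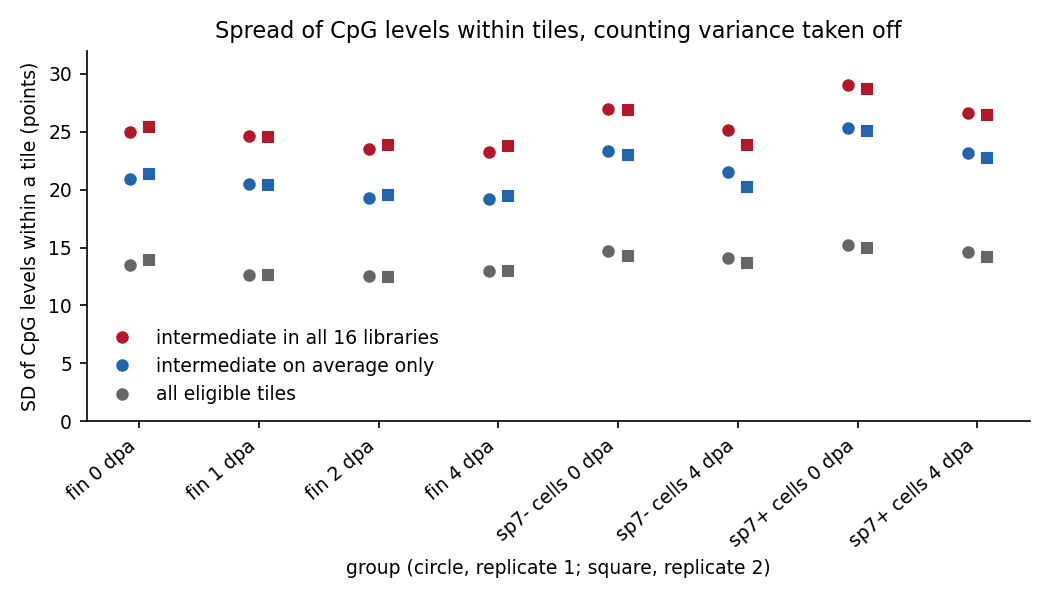
SD of CpG levels within a tile in points, with counting variance taken off (y axis), for each library of the 8 groups (x axis; circle replicate 1, square replicate 2), in the chosen tiles (red), tiles intermediate on average only (blue) and all eligible tiles (grey). In red, both sp7+ libraries at 0 dpa were the highest, and libraries at 4 dpa were below those at 0 dpa of the same kind.

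Most chosen tiles had no chosen tile beside them. As they were 0.610% of eligible tiles, this would hold for tiles placed evenly too, and clustering beyond this share was not tested. Of the 7051, 6892 had no chosen tile next to them, 78 pairs were adjacent and 1 block had 3 tiles, so that 159 tiles (2.26%) touched another. The nearest chosen tile was a median of 54000 bp away (quartiles 20500 and 124000), and 631 tiles (8.95%) had one within 5 kb. With limits on the level over all libraries instead, 61.5% of the tiles were single at 35 to 65% and 10.1% lay in stretches of 3 or more tiles, the longest of 8 tiles (4000 bp). Tiles intermediate on average only gave 60.6% and 10.6%. With limits of 25 to 75%, 33.5% of the chosen tiles were single and 33.3% lay in stretches of 3 or more tiles. Stretches of 6 tiles or more held 278 chosen tiles (3.94%), the longest of 9500 bp. For tiles intermediate on average only the shares were 32.6%, 33.3% and 3.73%.

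The block of 3 tiles was at chr1:54941500-54942999. Its tiles held 8, 7 and 10 CpGs and had mean levels of 52.8, 55.8 and 57.3%. Over the 16 libraries they ran from 43.8 to 64.1%, 46.9 to 64.6% and 50.0 to 64.4%, with as few as 20 calls in the middle tile. The block was not even, since 3 of its CpGs of 50 or more calls were low and 8 were high. The tile before it was at 90.7% and the one after it at 59.5%.

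The pair with the most CpGs, chr14:2341500-2342499, had 19 and 33. In whole fin its first tile was at 46.2 and 50.5%, 52.6 and 44.3%, 47.5 and 49.8%, and 50.2 and 52.1% at 0, 1, 2 and 4 dpa. In sp7- cells the same tile was at 53.7 and 44.8% before and 51.5 and 50.3% after amputation, and in sp7+ cells at 57.2 and 54.3%, then at 50.7 and 41.9%. Both sp7+ libraries at 0 dpa were above all other libraries in this tile. Replicates were furthest apart in sp7- cells before amputation, at 53.7 and 44.8%. None of its 52 CpGs was low, and 50 were medium. Coverage was 2.70 and 2.33 times the median of eligible tiles. Coverage above the median was also present in both tiles of the pair chr13:31163000-31163999, at 2.06 and 1.22 times, where 36 of 48 CpGs were medium. The pairs chr2:4195000-4195999 and chr7:13743500-13744499, of 45 CpGs each, had 1.39 and 0.977 times and 1.30 and 0.547 times the median coverage, and 40 of 44 and 31 of 36 CpGs of 50 calls were medium. These 4 pairs were longest by their CpG number, and their CpGs were less often low or high than in the chosen tiles as a whole, a description of pairs ranked by CpGs and not a test.

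Tiles were spread over all 25 chromosomes. Their share of eligible tiles ran from 0.518% on chromosome 22 to 0.760% on chromosome 7, with 470 tiles, and was 0.751% on chromosome 4. Among 275 windows of 5 Mb with 1000 or more eligible tiles, the median share was 0.595% and the highest 1.32%, for 53 of 4028 tiles at 45 to 50 Mb of chromosome 7. Of the 5 windows with the highest share, 3 were on chromosome 4, at 5 to 10, 10 to 15 and 50 to 55 Mb. The outer 1 Mb of the chromosomes held 339 of 51116 (0.663%), against 0.608% elsewhere.

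CpG density was slightly lower than in eligible tiles. The median was 10 CpGs per tile (quartiles 7 and 13) against 11 (8 and 16), and 4.92% against 13.2% had 20 or more. The share of eligible tiles that were chosen fell from 0.815% at 5 to 6 CpGs to 0.0744% at 31 or more. Tiles with a mean level in the band fell more steeply, from 15.2% to 0.912%. Among those, the chosen rose from 5.35 per 100 at 5 to 6 CpGs to 10.02 per 100 at 21 to 30, and were 8.16 per 100 at 31 or more, where 23 tiles were chosen. More CpGs per tile mean more calls, and the part of depth in these values was not tested.

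The 3 tiles richest in CpGs had SDs of CpG levels of 18.5, 22.3 and 14.5 points, below the chosen tiles' median of 24.5. The richest, chr7:16818500-16818999, held 48 CpGs and ran from 41.7 to 61.7% over the libraries, with 4 low, 26 medium and 3 high CpGs among the 33 of 50 calls. At chr7:14580000-14580499, with 45 CpGs, levels were 39.6 to 52.7%. Its first 12 CpGs had 65 to 108 calls each and levels of 83.6 to 96.3%, and the 33 that followed had 132 to 1355 calls and levels of 34.2 to 60.3%. The level went from 94.4 to 50.8% between 155 and 165 bp into the tile, where calls went from 108 to 132, and the calls were highest at 414 bp. The third, chr18:3850500-3850999, with 41 CpGs, ran from 39.7 to 64.8% over the libraries, with 0 low, 30 medium and 6 high CpGs among the 36 of 50 calls.

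Coverage was higher in the chosen tiles than in the others. The median was 219 calls per CpG over the 16 libraries, against 186 in eligible tiles and 182 in those intermediate on average only, and the share chosen rose with depth as given above. Above 2 times the eligible median were 355 (5.03%) of the chosen tiles, 4.12% of eligible tiles and 2.15% of those intermediate on average only. Above 5 times were 6 tiles (0.0851%), against 0.0215% of eligible tiles. The highest coverage, 17.6 times the median with 2042 to 6835 calls per library, was at chr17:53292500-53292999. Only 6 of its 16 CpGs had 50 or more calls over all libraries, so its calls came from a part of the tile. Its levels were 60.8 and 59.7%, 63.5 and 61.1%, 62.3 and 62.7%, and 58.2 and 58.6% in whole fin at 0, 1, 2 and 4 dpa, 56.6 and 59.5% and 57.5 and 55.8% in sp7- cells at 0 and 4 dpa, and 59.8 and 61.9% and 58.4 and 58.4% in sp7+ cells. These 16 values spanned 7.70 points. At chr17:39989500-39989999, with 10.6 times the median, they ran from 35.4 to 48.0%, and at chr1:39929500-39929999, with 7.91 times, from 46.2 to 59.2%. The part of excess coverage in their levels was not tested.

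Single CpGs at 0 to 5% between high CpGs, counted among CpGs with 50 or more calls over all libraries, were rare. Where 1 or 2 such CpGs had CpGs at 75% or more on both sides within 100 bp, they were present in 92 chosen tiles (1.30%, 116 CpGs), in 0.481% of tiles intermediate on average only and in 0.843% of all eligible tiles. The low CpGs of the flattest tile did not meet these limits. Of the 116 CpGs, 31 had no methylated call in any library. Without these CpGs, 13 of the 92 tiles still kept to the band in all 16 libraries, and of the other 79, 61 left the band in at least 1 library and 18 fell under the limit on CpGs or calls. By the study's methods, CpGs lost to single-nucleotide variants of the strain were set aside in its analyses. Whether the deposited counts still hold them was not checked. The origin of these CpGs' levels was not tested.

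Around the tiles methylation was high. The median level over all libraries was 50.6% in the chosen tiles, 75 and 75.4% in the tiles on either side, 81.5 and 81.8% in the next ones out and 81.0% at 10 kb. Eligible tiles had 84.5% in the tile itself and 82.6% at 10 kb. The dip thus spanned little more than the tile, and tiles intermediate on average only gave nearly the same profile. With both neighbours measured (6557 tiles), 24.2% had 2 high neighbours, 45.3% a medium and a high one, 18.7% 2 medium ones, and 7.72% a low and a high one. For eligible tiles these shares were 54.6%, 31.7%, 7.05% and 2.89%, and for those intermediate on average only 24.98%, 47.0%, 18.4% and 5.89%.

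**Figure D5:**
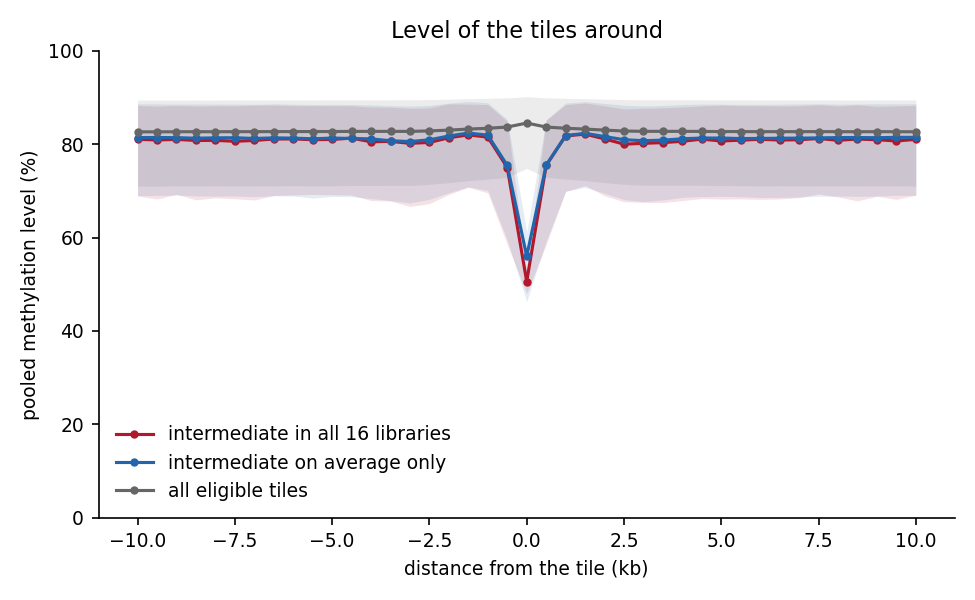
Median level over all libraries in percent (y axis, bands are quartiles) of tiles up to 10 kb (x axis) from the chosen tiles (red), tiles intermediate on average only (blue) and all eligible tiles (grey). The red line dips to 50.6% in the tile itself and is at 75 and 75.4% in the tiles next to it.

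Differences between cell types and time points were bounded by the rule to 30 points and are described next. Between sp7+ and sp7- cells, the median difference over the chosen tiles was 0.108 points at 0 dpa (quartiles -4.26 and 4.18) and -0.906 points at 4 dpa (-5.38 and 3.44). It was above 10 points in size in 861 tiles (12.2%) at 0 dpa and in 994 (14.1%) at 4 dpa. Replicates of a sorted group differed by more than 10 points in 11.2 to 19.5% of the tiles, and a mean of 2 libraries varies less than 1 library. From 0 to 4 dpa, the median change was -0.486 points in sp7+ cells and 0.512 points in sp7- cells. Over all eligible tiles these changes were -1.72 and -1.49 points, and in tiles intermediate on average only -0.707 and 0.0939 points. The median change of both sets was thus smaller than that of eligible tiles in sp7+ cells, and of the other sign in sp7- cells. These sp7- medians were below the median differences between replicates, 0.624 and 0.678 points in the chosen tiles at 0 and 4 dpa, and 0.765 and 1.34 in the wider set. In sp7+ cells 9.09% of the chosen tiles, 25.5% of the wider set and 6.71% of eligible tiles changed by over 10 points. Replicates of sp7+ cells at 0 and 4 dpa differed by this much in 15.1 and 11.2% of the chosen tiles. In the wider set it was 24.6 and 18.9%, and in eligible tiles 7.77 and 6.28%. The spread between replicates thus differed between the sets, and these shares do not tell in which set single tiles changed less.

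In whole fin, the median difference from 0 dpa was 3.05 points at 1 dpa, with 68.2% of the tiles higher, 2.50 points at 2 dpa with 65.1% higher, and 0.671 points at 4 dpa with 54.0% higher. Over all eligible tiles it was 1.39, 0.451 and -0.888 points, and in tiles intermediate on average only 4.53, 3.68 and 0.319 points. The medians of both libraries at 1 dpa (54.0 and 54.1%) and at 2 dpa (53.8 and 52.8%) were above both at 0 dpa (50.7 and 50.0%). The higher level at 1 and 2 dpa was thus shared with the wider set. Time after amputation and the kind of tissue, uninjured fin or regenerate, cannot be told apart.

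A test of each tile was fitted with limma over all 1155333 eligible tiles and called a tile where the levels differed by over 10 points with an adjusted p under 0.05. Between sp7+ and sp7- cells it called 4 of the chosen tiles at 0 dpa (0.752% of all tiles tested were called) and 10 at 4 dpa (0.744% of all). From 0 to 4 dpa it called 0 in sp7+ cells (0% of all) and 0 in sp7- cells (0.0461% of all). For whole fin at 1, 2 and 4 against 0 dpa it called 0 each (0% of all in each), and for the interaction of cell type and time 0 (0% of all). An unadjusted p under 0.05 was found between sp7+ and sp7- cells in 831 chosen tiles at 0 dpa (11.8%, against 10.3% of all tiles) and 972 at 4 dpa (13.8% against 10.4%). From 0 to 4 dpa it was found in 647 in sp7+ cells (9.18% against 11.8%) and 670 in sp7- cells (9.502% against 10.98%), and for the interaction in 356 (5.05% against 4.72%). For whole fin after 1, 2 and 4 days it was found in 488 (6.92% against 7.56%), 424 (6.01% against 6.46%) and 315 (4.47% against 6.43%). The rule that chose the tiles removed large differences, so their number of calls says nothing of them against other tiles. At 0 dpa the calls fell to 0 without either library of sp7- cells at 0 dpa or any one of the 4 libraries of sp7+ cells, and were 6 without either library of sp7- cells at 4 dpa. At 4 dpa they fell to 0 without either library of sp7+ cells at 4 dpa or replicate 2 of sp7- cells at 4 dpa, to 3 without its replicate 1, and to 2 without any one of the 4 libraries at 0 dpa.

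The called tiles with the widest differences used most of the band. At chr17:11184000-11184499, sp7+ cells at 0 dpa were at 62.8 and 63.5% and sp7- cells at 36.0 and 43.8%. At 4 dpa sp7+ cells were at 58.1 and 46.2% and sp7- cells at 41.9 and 35.1%. They differed by 23.2 points before and 13.7 points after amputation, with no overlap at either time. Whole fin at 0, 1, 2 and 4 dpa was at 41.5 and 38.7%, 60% and 55.0%, 58.2 and 53.1%, and 38.4 and 56.3%. Each of its 16 CpGs was medium.

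Of the 4 tiles called at 0 dpa, 1 was lower in sp7+ cells, chr25:10393000-10393499, where sp7+ cells were at 38.2 and 38.5% and sp7- cells at 57.3 and 54.6%. At 4 dpa they were at 45.5 and 44.0% and at 51.7 and 54.7%, and the difference went from -17.6 to -8.45 points. With the replicate number as a block in limma it was not called, at an adjusted p of 0.0527 in place of 0.0495.

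Of the tiles called at 4 dpa, the widest difference was at chr13:30195500-30195999. There sp7+ cells were at 39.1 and 36.0% and sp7- cells at 63.3 and 61.0%, a difference of -24.6 points. At 0 dpa sp7+ cells were at 37.2 and 38.5% and sp7- cells at 57.4 and 47.8%, a difference of -14.8 points. Whole fin was above the sp7+ libraries, at 57.7 and 41.6%, 51.6 and 46.7%, 43.9 and 50.7%, and 56.0 and 46.5% at 0, 1, 2 and 4 dpa.

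Of the called tiles that were higher in sp7+ cells at 4 dpa, the widest difference was at chr10:22544000-22544499. It was at 59.9 and 59.8% in sp7+ cells of the regenerate and at 42.9 and 35.05% in its sp7- cells, a difference of 20.9 points. At 0 dpa its levels were 55.8 and 55.8% and 52.8 and 53.0%, a difference of 2.94 points. Of the 14 called tiles, the difference at the time point where the tile was not called had the same sign in 13. The exception, named after its values were seen, was chr3:17602500-17602999, where sp7+ minus sp7- went from 7.82 points before to -20.5 points after amputation. With the replicate number as a block it too was not called (limma, adjusted p of 0.0506 in place of 0.0470).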

How the data were processed

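The deposited files hold, for each CpG they list by its GRCz10 position, the count of calls and the count of methylated calls, joined over both strands. Per the study's methods, the authors trimmed reads with Trim Galore 0.4.1, mapped them with Bismark 0.16.1 and bowtie2 to a GRCz10 carrying variants of the strain, removed duplicates and extracted these deposited counts without normalization. Each of 16 libraries listed 23997221 CpGs, with a mean coverage of 4.92 to 19.7 calls. Reads had no molecular identifiers, so depth bounds counting error only. Whether positions count from 0 or 1 was not settled. A GRCz10 sequence or annotation was not used here, so tiles are given by position without genes or sequence.

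Tiles were position divided by 500, rounded down. Arcsine square root levels were fitted by weighted least squares (weight n/(1 + (n - 1) × 0.02), n calls) in numpy 2.4.6, sorted and fin libraries apart. Variances were shrunk with limma 3.58.1 and p-values adjusted by Benjamini-Hochberg over all eligible tiles. The code was tested on simulated data. Replicates are labelled only by number, so p-values measure the spread between these libraries.

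Members, groupings and lists were chosen with earlier results of these data known. Tiles named are the 5 longest blocks (ties by CpGs), the 3 with most CpGs, with the smallest range, with the smallest and largest CpG spread (8 or more CpGs of 50 calls), with the highest coverage, those nearest the band's edges, and the called tile with the largest difference in each direction. Alternatives were other limits on calls, CpGs and level, other tiles, libraries left out, and other fits.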

Additional observations from a re-analysis of the deposited data

How the results depend on the processing

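The number of tiles followed the band: 27817 were at 30 to 70% in each library and 498 at 40 to 60%. It was 3781 with 10 or more CpGs, and 30039 or 18464 when only the 8 sorted or only the 8 whole fin libraries had to keep to the band, since fewer libraries were asked. With 1 library left out it was 7228 to 8296. Other limits on calls (10 or 40), 3 CpGs, tiles shifted by 250 bp or of 1000 bp, and levels averaged over CpGs gave 5288 to 9664, and the alternatives chosen after seeing the data gave 6671 (5 CpGs with calls in every library), 6973 (without isolated low CpGs) and 6696 (at most 2 times the median coverage). The share of tiles with both a low and a high CpG ran from 52.7% (calls of whole fin alone) to 84.5% (1000 bp tiles). The differences in CpG spread between groups kept their sign with 10 calls per CpG and with the same CpGs in each library, both chosen after seeing the data.

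Called tiles between sp7+ and sp7- cells fell from 4 at 0 dpa and 10 at 4 dpa to 0 and 0 with equal weights. Over all eligible tiles the calls went from 8686 and 8598 to 5074 and 3795. When all tiles with 10 calls in each sorted library were tested, 0 and 0 chosen tiles were called, and 2926 and 576 of all tiles. A limit of 25 points had to give 0 and 0. Differences in the chosen tiles ran only from -21.5 to 23.2 points at 0 dpa and from -24.6 to 23.3 at 4 dpa. One fit over all 16 libraries called 1 and 8. With 1 library left out the calls ran from 0 to 6 at 0 dpa and from 0 to 3 at 4 dpa. Apart from the limit of 25 points, the cause of the changed counts was not tested. In the other 6 comparisons each of these alternatives called 0.

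With the replicate number as a block, 4 tiles were called at 0 dpa, 3 of them as before, and 10 at 4 dpa, 7 of them as before. Over all eligible tiles, 10282 and 9888 were then called, against 8686 and 8598 without a block. With the number as a block within each time point, a fit chosen after seeing the data, the counts were 3 (3 as before) and 8 (7 as before), and chr25:10393000-10393499 and chr3:17602500-17602999 were again not called. Of all eligible tiles this fit called 9985 and 9424. Neither block moved a count by over 1.5 times. Deviations of same-numbered libraries correlated at 0.129 between sp7- and sp7+ cells at 0 dpa, 0.0742 at 4 dpa, 0.0576 to 0.0903 in the other sorted pairs and -0.00651 to 0.00508 among whole fin groups. Whether equal numbers mark a shared pool cannot be told from these values.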
